A study of Canis lupus familiaris with 28 samples.

Results

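B cell identity genes are the genes whose products mark a cell as a B lymphocyte, and they were followed here in the blood of dogs with atopic dermatitis (AD) and of healthy dogs. A list of 9 genes was fixed: MS4A1, CD79A, CD79B, CD22, PAX5, BLK, FCRLA, CD72 and POU2AF1. A gene was taken where the gene name on the array equalled its symbol, and all of its probes were used. This rule found 7 of the 9 genes, among 34382 distinct names on the array, with 8 of its 43603 probes, and all 8 probes passed the filter on low signals that left 30202 probes. FCRLA and POU2AF1 were not found by name. A probe that the array describes as POU domain class 2 associating factor 1, but names otherwise, is given apart as the POU2AF1-described probe, and FCRLA was not analysed here.

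Whole-blood RNA was studied on Agilent canine arrays of the two-color type, with 20 arrays for 20 AD dogs and 8 arrays for 8 healthy dogs. The dogs were client-owned adults of various breeds and of both sexes, and the AD dogs were given no anti-inflammatory drugs in the weeks before their allergy tests. Each dog's RNA was labelled with Cy5 and set against Cy3-labelled RNA of a common reference, a pool from 13 healthy dogs that were not otherwise studied. The value of a probe is therefore the log2 ratio of dog to pool, centered on the median of its array, and 0 stands for the ratio of the median probe. A log2 fold change is the mean of AD dogs minus the mean of healthy dogs. The series title speaks of nuclear cells of peripheral blood and the sample labels of whole blood. Genes of neutrophils (10 of 11 listed), erythroid cells (7 of 9), T cells (10 of 12) and monocytes (8 of 8) passed the signal filter together with the B cell genes. In such bulk RNA fewer B cells and less RNA per B cell cannot be told apart. B lymphocytes of these dogs were also counted by flow cytometry in the study, and those counts were not analysed here.

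The arrays differed in quality along the groups. The share of probes that the dog's own RNA lifted well above background was 51.7% to 87.5% in AD dogs (median 79.8%) and 84.3% to 90.3% in healthy dogs (median 86.5%). Each of the 8 slides and 5 scan days held dogs of 1 group, with the healthy dogs on slides 2 and 3, so batch and group cannot be told apart. Between arrays, Pearson's r over all probes ran from -0.397 to 0.811, and 13 of 378 pairs of arrays lay under -0.3. The direction of every ratio rests on the dyes that the labels state.

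B cells recognise antigen through surface immunoglobulin, which signals through a pair of attached chains, Igα and Igβ, made from CD79A and CD79B. The kinase BLK is 1 of the Src family enzymes that act at this receptor, and CD22 and CD72 are surface receptors that dampen it. MS4A1 encodes CD20, the surface protein that therapeutic antibodies against B cells bind. PAX5 is the transcription factor that commits and holds cells in the B lineage, and POU2AF1 encodes a B cell coactivator of octamer-binding factors. Most of these genes are switched off when a B cell becomes a plasma cell.

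The probes are shown because each value below is the hybridization of 1 such stretch of 60 bases and of no other part of the transcript. They are written 5′ to 3′ in the sense of the transcript as deposited with the arrays. No other probe on the array shared 30 bases in a row with any of them. The list runs in the order of the genes above.
MS4A1: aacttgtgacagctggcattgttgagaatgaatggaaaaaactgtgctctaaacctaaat
CD79A: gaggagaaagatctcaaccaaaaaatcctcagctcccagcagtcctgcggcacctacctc
CD79B: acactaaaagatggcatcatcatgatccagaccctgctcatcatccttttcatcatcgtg
CD22: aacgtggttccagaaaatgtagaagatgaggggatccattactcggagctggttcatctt
PAX5: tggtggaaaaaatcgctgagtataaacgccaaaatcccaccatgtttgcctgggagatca
BLK: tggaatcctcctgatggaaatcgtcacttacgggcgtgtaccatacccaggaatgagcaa
CD72, probe 1: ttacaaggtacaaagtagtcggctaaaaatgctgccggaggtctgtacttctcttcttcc
CD72, probe 2: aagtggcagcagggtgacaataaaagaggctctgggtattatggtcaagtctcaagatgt

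On the canFam3 build, as the array files give it, the MS4A1 probe lies at chr21:50732271-50732330 on the plus strand. The other probes lie on the minus strand. CD79A is at chr1:112412925-112412984 and CD22 at chr1:117262516-117262575, on the same chromosome. CD79B is at chr9:11842758-11842817 and PAX5 at chr11:53370845-53370904. The BLK probe is spread over 717 bases, chr25:26337088-26337804, so its 60 bases are interrupted in the genome. CD72 probe 1 is at chr11:52171259-52171318, and probe 2 covers chr11:52171318-52172095, so that the pair meets at 1 base. Probe 2 was the brighter and stands for CD72 wherever 1 value per gene is used.

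Neither chain of the B cell receptor complex separated AD from healthy dogs. For CD79A, the log2 ratio of AD dogs was lowest at -0.45, had a median of -0.20 and was highest at 1.99. The healthy dogs ran from -0.56 through a median of -0.14 to 0.38. The healthy range held 18 of the 20 AD dogs, and the high value of 1.99 came from AD dog 8 alone. The means were -0.03 ± 0.54 (SD, n = 20) and -0.20 ± 0.33 (SD, n = 8), a log2 fold change of 0.17 (SE 0.198, adjusted p = 0.888 by limma). For CD79B, AD dogs ran from -1.16 through a median of -0.30 to 1.17, and healthy dogs from -1.35 through -0.14 to 0.22. The groups overlapped over most of their range, with 3 AD dogs above the highest healthy dog and 0 below the lowest. The log2 fold change of CD79B was 0.05 (SE 0.222, 95% CI -0.41 to 0.50, adjusted p = 0.978 by limma).

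MS4A1 was the most variable of the member genes in AD dogs, with an SD of 0.97 against 0.60 in healthy dogs. AD dogs ran from -2.35 through a median of -0.44 to 1.16, and healthy dogs from -1.04 through -0.14 to 0.73. The AD dogs lay on both sides of the healthy dogs, 6 below the lowest and 4 above the highest. Over all probes tested, the median AD dog had 15.5% of them below the healthy range and 15.4% above it. Of the 20 AD dogs, 14 were below the healthy mean, and the log2 fold change was -0.37 (SE 0.347, 95% CI -1.08 to 0.34, adjusted p = 0.873 by limma). This difference was smaller than the spread between dogs of either group.

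The inhibitory receptors CD22 and CD72 had nearly equal group means. CD22 ran from -2.08 through a median of 0.19 to 1.70 in AD dogs and from -0.33 through 0.17 to 0.47 in healthy dogs. Most AD dogs, 15 of 20, lay inside the healthy range, and the wide AD range came from dog 16 at the bottom and dog 19 at the top. In dogs 14 and 16 the CD22 signal was not well above background. The log2 fold change of CD22 was -0.01 (SE 0.242, 95% CI -0.50 to 0.49, adjusted p = 0.996 by limma). CD72 probe 2 ran from -1.13 through 0.14 to 0.89 in AD dogs and from -0.07 through 0.06 to 0.60 in healthy dogs, with a log2 fold change of -0.04 (SE 0.169, adjusted p = 0.974 by limma). CD72 probe 1 ran from -1.80 through -0.35 to 0.89 in AD dogs and from -0.49 through -0.30 to 0.61 in healthy dogs, with a log2 fold change of -0.13 (SE 0.232, adjusted p = 0.932 by limma). Its lowest AD values, -1.80 in dog 16 and -1.20 in dog 14, came from signals not well above background. Dog 16 was the lowest AD dog for probe 2 as well. The adjoining probes of this gene gave the same sign, and their log2 ratios had an r of 0.775 over AD dogs and 0.575 over healthy dogs.

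With the settings used here, PAX5 had the largest difference of the member genes. AD dogs ran from -3.25 through a median of -0.46 to 0.43, and healthy dogs from -0.44 through -0.17 to 0.31. The healthy dogs were tightly placed, and 10 of the 20 AD dogs lay below the lowest of them while 2 lay above the highest. For comparison, the median AD dog had 15.5% of all probes below the healthy range and 15.4% above it. The log2 fold change was -0.41 (SE 0.281, 95% CI -0.99 to 0.16, unadjusted p = 0.151, adjusted p = 0.866 by limma). The dog signal of PAX5 was low, and in the AD dogs with the lowest log2 ratios, dog 14 at -3.25 and dog 16 at -1.62, it was not well above background. With only the values where both channels were well above background, a setting chosen after seeing the data, the log2 fold change of PAX5 was -0.20 (unadjusted p = 0.231 by limma). After another background correction, normexp with an offset of 50 and loess, it was -0.02. An offset added to both channels changes the scale of log2 ratios of dim probes. Its part in this value was not tested. Without scan day 5 it was -0.53 (adjusted p = 0.572), without slide 8 -0.57 (unadjusted p = 0.0458, adjusted p = 0.622) and with array weights -0.43 (unadjusted p = 0.0223, adjusted p = 0.178), all by limma.

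BLK ran from -1.99 through a median of -0.09 to 0.91 in AD dogs and from -0.55 through 0.21 to 0.64 in healthy dogs. Of the AD dogs 15 lay below the healthy mean, yet 16 of 20 stayed inside the healthy range. BLK passed the signal filter only through the dog channel of healthy dogs, with a median signal of 117.4 beside 86.1 in AD dogs. The reference channel had medians of 95.3 and 70.4. A lower value in AD dogs is therefore not independent of that filter. The log2 fold change was -0.32 (SE 0.246, 95% CI -0.82 to 0.19, adjusted p = 0.868 by limma). In dogs 14, 15, 16 and 20, the lowest for this gene, the BLK signal was not well above background. A setting chosen after seeing the data kept only values with both channels well above background. It also left out dog 13, whose reference signal was not, and there the log2 fold change of BLK was -0.03. Without slide 5 the log2 fold change of BLK was -0.50 (unadjusted p = 0.0413, adjusted p = 0.535 by limma). The POU2AF1-described probe ran the other way, from -0.44 through 0.15 to 0.90 in AD dogs and from -0.40 through 0.03 to 0.38 in healthy dogs. Its log2 fold change was 0.23 (SE 0.148, 95% CI -0.07 to 0.53, adjusted p = 0.866 by limma). Above the highest healthy dog lay 7 AD dogs, where the median AD dog had 15.4% of all probes above the healthy range.

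**Figure D1:**
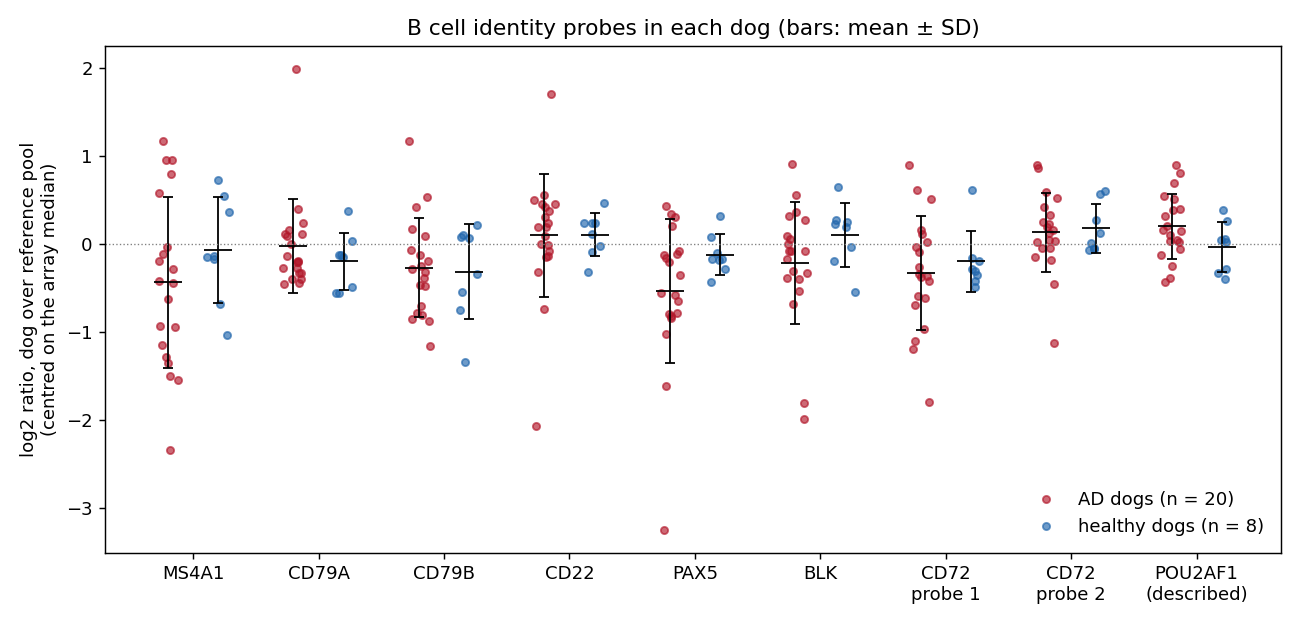
Log2 ratio of dog to reference pool (y axis) for each B cell identity probe (x axis) in AD dogs (red points, n = 20) and healthy dogs (blue points, n = 8), with black bars for mean ± SD. The points of the groups overlap for every probe, and the AD points of MS4A1 and PAX5 reach down to -2.35 and -3.25.

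Across the array 0% of the 30202 probes passed the adjusted p of 0.085 or 0.05, and the smallest adjusted p was 0.490. Accordingly 0 of the 8 member probes passed by limma. At an unadjusted p under 0.05, 6.12% of all probes were called, 4.46% lower and 1.65% higher in AD dogs, and 0 of the 8 member probes. Of these calls over all probes 27.0% were higher in AD dogs, a share that was 41.1% for the dog channel alone and 26.3% without centering. The smallest unadjusted p of a member probe was 0.151. Over the 7 genes the median log2 fold change was -0.04, beside -0.01 over all probes tested. Of the genes, 5 of 7 had a negative log2 fold change, and so had 52.1% of all probes. BLK is among these 5 and passed the signal filter only through the dog channel of healthy dogs. The 95% intervals of MS4A1, PAX5 and BLK reached down to -1.08, -0.99 and -0.82 and all included 0.

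**Figure D2:**
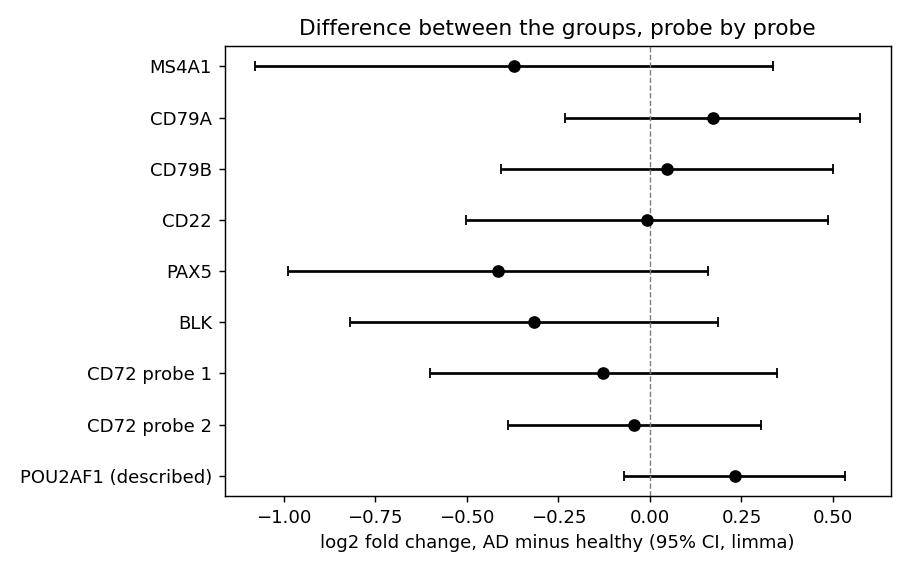
Log2 fold change of AD minus healthy dogs (x axis) for each probe (y axis), with 95% CI from limma. Every interval crosses 0, from PAX5 at -0.41 to the POU2AF1-described probe at 0.23.

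Averaged over the 7 genes, AD dogs had a log2 ratio of -0.18 ± 0.50 (SD, n = 20), from -1.41 in dog 16 to 0.80 in dog 19. Healthy dogs had -0.05 ± 0.22 (SD, n = 8), from -0.40 to 0.29. The AD dogs therefore spread to both sides of the healthy dogs. Dog 16 was below the healthy range for 5 of 7 genes (MS4A1, CD22, PAX5, BLK and CD72) and dog 14 for 4 (MS4A1, PAX5, BLK and CD72). Dog 19 was above it for 5 (MS4A1, CD79B, CD22, PAX5 and CD72). Over all probes tested, 21.7% were below the healthy range in dog 16 and 26.3% in dog 14, and 16.2% were above it in dog 19, beside 5.09% to 26.3% below and 6.33% to 25.8% above over all AD dogs. In these 3 dogs 58.1%, 60.2% and 61.3% of probes were well above background. In dog 16 the signals of CD22, PAX5 and BLK, and in dog 14 those of PAX5 and BLK, were not, so that their positions and the average of dog 16 are inexact. Of all AD dogs, 3 were inside the healthy range for every gene, 9 were outside it downward only, 4 upward only and 4 in both directions.

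Most of the genes varied together from dog to dog in AD dogs. All 21 pairs of the 7 genes had a positive Pearson's r, with a median of 0.475 and a range of 0.120 to 0.862. An r of at least 0.5 was reached by 10 of 21 pairs (47.6%), beside 9.8% of all pairs of probes in the same dogs, whose median r was -0.004. After Benjamini-Hochberg adjustment over the 42 correlations computed in the 2 groups, 7 pairs passed 0.05 by Pearson's r, 8 by Spearman's rho and 6 by both. Both genes of a pair were read on the same array, so what is particular to an array enters both. The permutations exchanged dogs across slides, so these p-values do not set differences between slides apart. No p was computed within slides.

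The closest pair was MS4A1 and CD79B. Their r was 0.862 and rho 0.854 in AD dogs (permutation test, p = 1e-05 and 2e-05, the first being the smallest that 100000 permutations can give; adjusted p = 0.00021 and 0.00084). Without dogs 14 and 20, farthest from the median of MS4A1, r was 0.869, and with slide means removed 0.672. MS4A1 and PAX5 had an r of 0.783 and a rho of 0.764 (permutation test, adjusted p = 0.00021 and 0.00483). The r of this pair was 0.738 without the same dogs and 0.600 with slide means removed. Dogs 16 and 19, the extreme dogs for CD79B, stayed in both of these values.

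CD22 and CD72, the inhibitory receptors, had an r of 0.830 and a rho of 0.728 in AD dogs (permutation test, adjusted p = 0.00084 and 0.0056). Without dogs 16 and 19, r fell to 0.557, and with slide means removed it was 0.718. CD79B and CD22 had an r of 0.714 and a rho of 0.639 (permutation test, adjusted p = 0.00798 and 0.0221), and 0.438 without dogs 16 and 19. The remaining pairs that passed by both measures were MS4A1 and CD72 with an r of 0.606 and CD79B and PAX5 with an r of 0.627 (permutation test, adjusted p = 0.0277 and 0.0334). Without the 2 farthest dogs r was 0.528 and 0.547 for these pairs, and with slide means removed 0.496 and 0.306. CD79B and CD72 passed by Pearson's r alone (0.640), and MS4A1 and CD22 (rho 0.585) and PAX5 and CD72 (rho 0.699) by Spearman's rho alone.

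**Figure D3:**
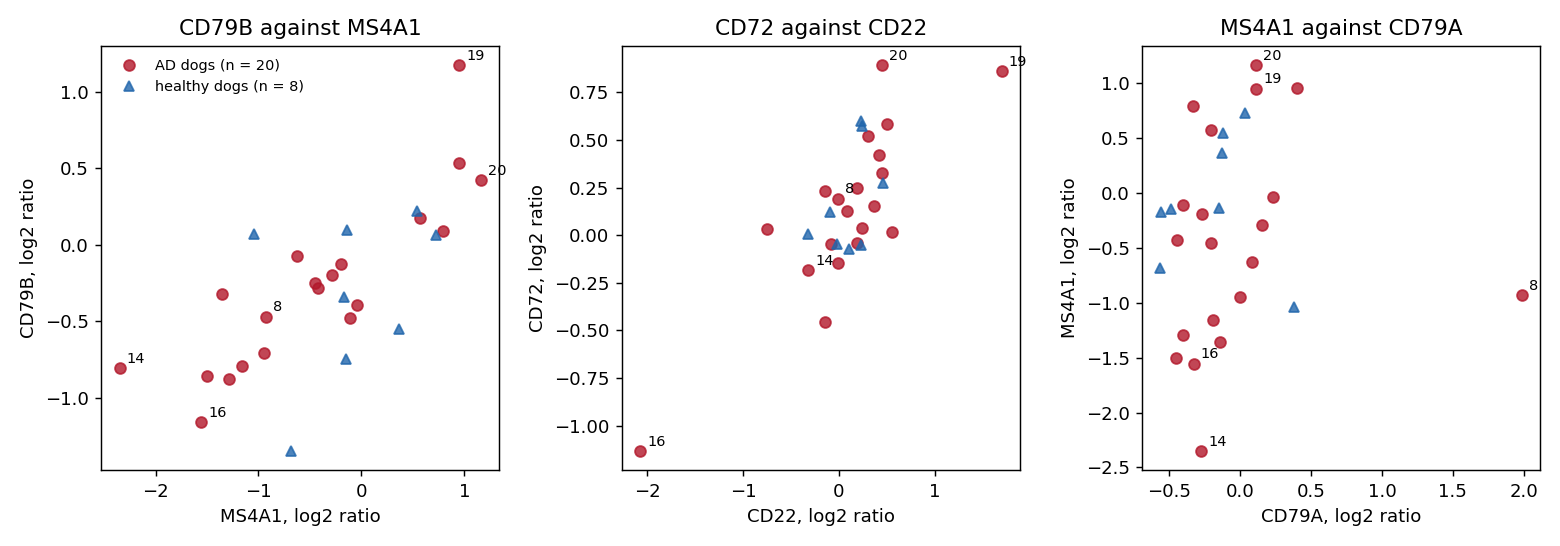
Log2 ratios of CD79B against MS4A1, of CD72 against CD22 and of MS4A1 against CD79A, 1 point for each AD dog (red circles, n = 20) and healthy dog (blue triangles, n = 8), with the AD dogs 8, 14, 16, 19 and 20 numbered. CD79B rises with MS4A1 over the AD dogs (r 0.862), and the CD22 and CD72 plot is drawn out by dogs 16 and 19. For CD79A and MS4A1, with dog 8 included, r is 0.120 and rho 0.387.

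CD79A, the partner chain of CD79B, had the lowest Pearson's r with the others. Its r with the other 6 genes in AD dogs was 0.120 to 0.208, and with CD79B it was 0.187. Spearman's rho for CD79A and CD79B was 0.466 (permutation test, adjusted p = 0.131). With MS4A1, CD22, PAX5 and BLK rho was 0.337 to 0.387, and with CD72 0.126. Without dogs 8 and 11 Pearson's r was 0.489 with CD79B, 0.454 with CD22, 0.371 with PAX5, 0.318 with CD72 and 0.168 with BLK. With slide means removed, r with CD79B was 0.00651, and over the 6 genes it ran from -0.0785 to 0.0928. BLK was intermediate, with r between 0.204 and 0.475. The r of 0.475 with CD22 became -0.14 without dogs 16 and 19. The POU2AF1-described probe had an r of -0.387 and a rho of -0.170 with the average of the 7 genes in AD dogs, and -0.0264 without the 2 dogs farthest from the median of that average.

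In the 8 healthy dogs the median r of the 21 pairs was 0.277, 15 of 21 were positive, and 3 (14.3%) reached 0.5, beside 17.5% of all pairs of probes. The highest were CD79A and CD79B with 0.700 and MS4A1 and PAX5 with 0.695 (exact permutation test, adjusted p = 0.172 for both). None of the 21 healthy pairs passed 0.05 after adjustment in the exact permutation test, and 0 of 21 had an unadjusted p under 0.05. Whether any pair differed between AD and healthy dogs was not tested. The median r of AD dogs was 0.243 without dog 16 and between 0.435 and 0.555 without any other AD dog. That of healthy dogs was 0.0576 without dog 6 and 0.0591 without dog 8.

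**Figure D4:**
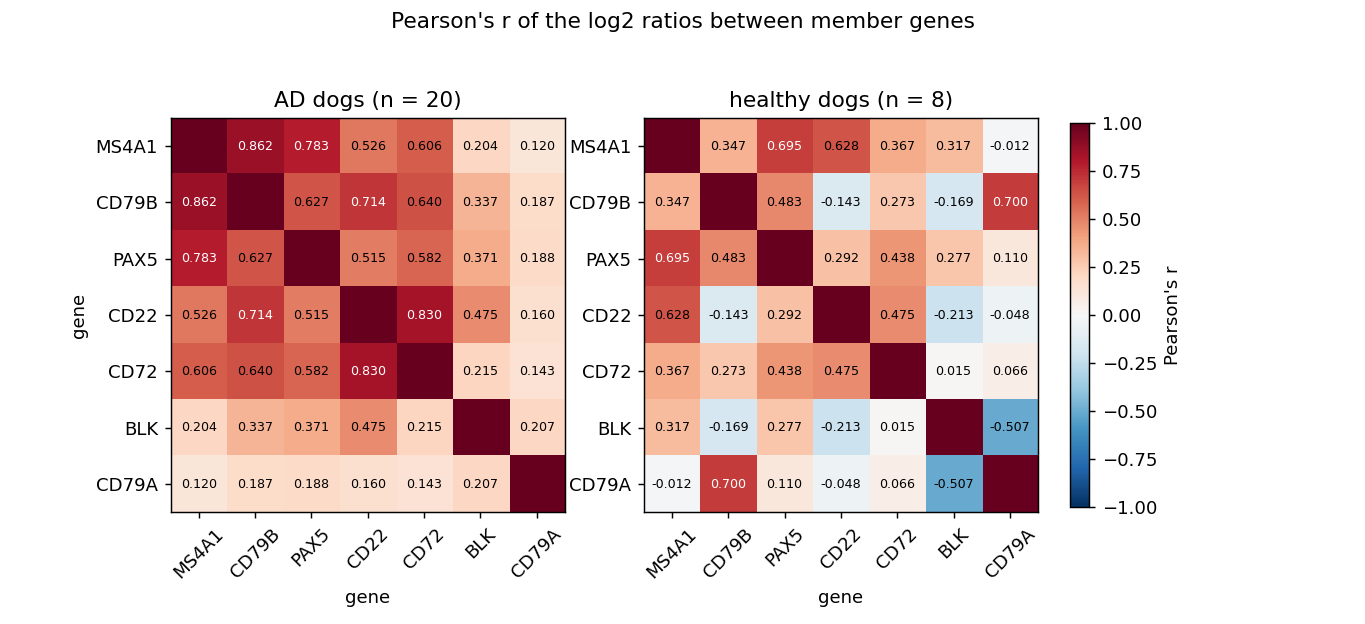
Pearson's r between the log2 ratios of the 7 member genes (both axes) in AD dogs (left, n = 20) and healthy dogs (right, n = 8), colored from -1 in blue to 1 in red. In AD dogs MS4A1, CD79B, PAX5, CD22 and CD72 form a block with r from 0.515 to 0.862. With dog 8 included, CD79A stays at 0.208 or below.

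Some of the variation among AD dogs ran with the slide. In a comparison of the 6 slides that held AD dogs, added after seeing the data, MS4A1 differed between slides (adjusted p = 0.0466 by limma's moderated F test), as did 3.74% of all probes at 0.05. In the same F test CD79B (adjusted p = 0.0688) missed 0.05 but passed 0.085, as did 5.28% of all probes, and PAX5 (adjusted p = 0.116) and the other members passed neither. The mean log2 ratio of MS4A1 was 0.97 on slide 8, which held 3 dogs, and -1.82 on slide 6, which held 2. On slides 1, 4, 5 and 7 it was -0.95, -0.44, -0.10 and -0.70, and on the healthy slides 2 and 3 it was -0.02 and -0.11. Slides 7 and 8 were scanned on the day with the lowest share of probes above background, at most 63.2%. The centered average of the 7 genes had an r of 0.0994 and a rho of -0.0737 with that share in AD dogs, -0.388 without the 2 farthest dogs and 0.412 with slide means removed. Its part in the values of the members was not tested. With slide means removed, the median r of the 21 pairs in AD dogs was 0.392. The MS4A1 fold change on the log2 scale was -0.62 without slide 8 and -0.22 without slide 6.

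**Figure D5:**
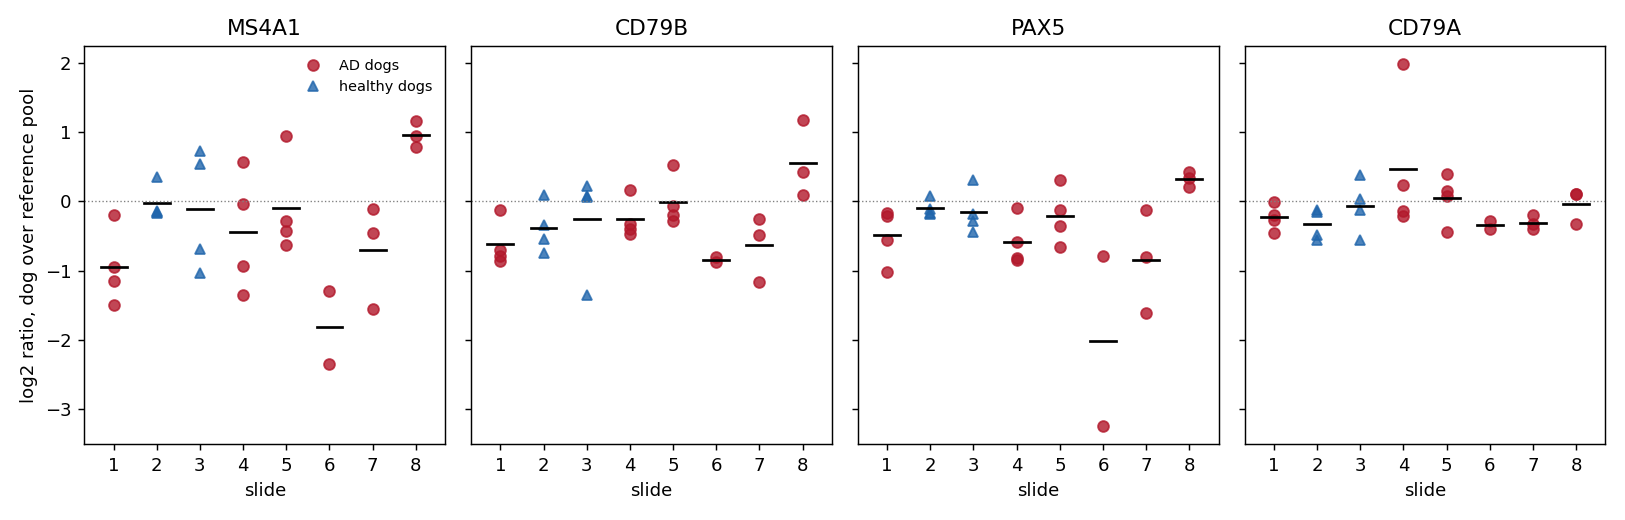
Log2 ratio of dog to reference pool (y axis) for MS4A1, CD79B, PAX5 and CD79A by slide (x axis), with AD dogs as red circles, healthy dogs as blue triangles and slide means as black lines. The 3 dogs of slide 8 are high for MS4A1 (mean 0.97) and the 2 of slide 6 low (mean -1.82), while CD79A shows no such order apart from dog 8.

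Of 14 listed genes that act downstream of the B cell receptor, 13 were tested. An unadjusted p under 0.05 by limma was reached by 0 of them in either direction, which is near the 6.12% of all probes, and the median log2 fold change was -0.06. The smallest p belonged to BLNK, the adaptor between the receptor and its effectors (log2 fold change -0.39, SE 0.324, adjusted p = 0.872 by limma). Then came BTK, the kinase whose loss blocks B cell development in humans, with -0.19 (SE 0.170). Over AD dogs the median r of the 13 with the average of the member genes was -0.0569. Genes with an r of at least 0.5 included BLNK (0.850), STAP1 (0.738) and BANK1 (0.513). Over all probes with a symbol the median r with that average was 0.0315 in AD dogs. The share of them at 0.5 or above was not computed. Below 0.5 lay PRKCB (-0.400), PTPN6 (-0.364), PIK3AP1 (-0.287), SYK (-0.163), LYN (-0.114), BCL10 (-0.0713), BTK (-0.0569), PLCG2 (0.119) and MALT1 (0.170).

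Of 22 other surface and transcription factor genes of B cells, 14 were tested and 0 passed an unadjusted p under 0.05 by limma, again near the 6.12% of all probes. Their median log2 fold change was -0.003. CD37, a tetraspanin of B cells, had 0.30 (SE 0.159, unadjusted p = 0.0666 by limma), and CR2, the complement receptor CD21, -0.45 (SE 0.369). Over AD dogs the genes with an r of at least 0.5 with the member average were CR2 (r 0.780), CD40 (0.757), CIITA (0.713), SWAP70 (0.706), FCRL1 (0.674), CXCR5 (0.611) and RALGPS2 (0.548). The share of all probes with a symbol that reached 0.5 was not computed. The median r of the 14 was 0.491, beside 0.0315 over all probes with a symbol. The probe of EBF1, a transcription factor of early B cells, had an r of -0.299, and that of CD37 -0.221. BCL6, the germinal center repressor, had -0.550 in AD dogs and -0.613 in healthy dogs.

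Of 10 listed genes of plasma cells, the antibody-secreting stage, 6 were tested, with a median log2 fold change of -0.25, and 2 had an unadjusted p under 0.05 by limma, both lower, beside the 4.46% of all probes. IGJ, the joining chain of secreted IgA and IgM, had a mean log2 ratio of -0.66 ± 1.21 (SD, n = 20) in AD and 0.48 ± 0.74 (SD, n = 8) in healthy dogs. Its log2 fold change was -1.14 (SE 0.429, unadjusted p = 0.0124, adjusted p = 0.562 by limma). DERL3, a gene of protein disposal in the endoplasmic reticulum, had -0.54 (SE 0.223, unadjusted p = 0.0222, adjusted p = 0.651 by limma). IRF4 followed with -0.32 (SE 0.236). The mean of this list had an r of 0.257 and a rho of 0.198 with the member average in AD dogs. For 30 probes described as immunoglobulin chains the r was 0.141 in AD and 0.639 in healthy dogs. These values were -0.188 and 0.242 when the 2 dogs with the most extreme member average were left out. Of the 30 probes, 3 were higher and 2 lower at an unadjusted p under 0.05, beside 1.65% and 4.46% of all probes, and 0 passed after adjustment by limma.

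The means of lists for other blood cells were set beside the members over AD dogs as a description. The member average had an r of 0.0305 with the mean of 10 T cell genes, 0.164 with that of 5 genes of NK and cytotoxic cells and -0.186 with that of 8 monocyte genes. With slide means removed, the r was 0.281 for the T cell list and 0.4996 for the NK and cytotoxic list. Single T cell genes ran in both directions, with a median r of 0.380, beside 0.0315 over all probes with a symbol. LCK (0.605) and CD3D (0.557) had the highest r of these genes and CD28 the lowest (-0.530). The median gene of the B cell receptor list, for comparison, had an r of -0.0569. The member average had an r of -0.486 with the mean of 10 neutrophil genes, -0.383 with that of 7 erythroid genes and -0.372 with that of 4 platelet genes. The neutrophil list mean ran from -0.42 to 1.36 in AD dogs and from -0.36 to 0.58 in healthy dogs, and the erythroid list mean from -1.54 to 1.35 and from -1.33 to 1.11. The median log2 fold change was 0.23 for the neutrophil genes and 0.31 for the erythroid genes. It was -0.30 for the NK and cytotoxic genes as well as for the platelet genes. An unadjusted p under 0.05 by limma was reached by 0 of the neutrophil, erythroid and platelet genes, beside 6.12% of all probes. Of the NK and cytotoxic genes 2 of 5 were lower at that limit, beside 4.46% of all probes. They were GZMK (-0.56, adjusted p = 0.684 by limma) and EOMES (-0.32, adjusted p = 0.677 by limma). The part of these cells in the member values was not tested. Without the 2 dogs farthest from the median of the member average, the r with the neutrophil list was -0.137 in AD dogs.

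The genes most like the members were ranked by Pearson's r with the member average over the 20 AD dogs, among 10312 genes with a symbol in the RefSeq table. The first 10 had r from 0.847 to 0.907. THSD1 led with 0.907, and the others included DLA-DOB (0.889), CD83 (0.888), IFT122 (0.859), DLA-DOA (0.856), RASGRP3 (0.855), RHOH (0.853), BLNK (0.850) and PRKCQ (0.847). DLA-DOA and DLA-DOB encode the chains of a class II molecule of the dog that regulates peptide loading in antigen-presenting cells, and CD83 is a surface marker of activated dendritic cells and B cells. In the healthy dogs, which played no part in the ranking, 7 of these 10 had an r of at least 0.5 with the member average, beside 5.25% of the probes with a symbol. The highest were IFT122 (0.864), DLA-DOB (0.849), DLA-DOA (0.835) and BLNK (0.810), and the lowest PRKCQ (0.317). None of the 10 differed between the groups after adjustment, and their log2 fold changes ran from -0.39 (BLNK) to -0.01 (PRKCQ).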

How the data were processed

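Scanned images were read by the authors in Agilent Feature Extraction, version 10.7.3.1 per the labels and 10.10.1.1 per the file headers. The deposited intensities are linear spot signals after background subtraction and Lowess dye normalization. The deposited log10 ratios, which the authors' processed table repeats, were within 0.001 of those of the processed signals in 94.2% of cases.

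Control spots were left out, spots marked as outliers were set to missing and repeated spots of a probe were averaged. A probe stayed in where it was well above background in either channel on at least 1 array, where at least 1 of the 4 medians of its processed signal (channel by group) exceeded 100, and where a share of at least 0.5 of each group's arrays gave a value. The log2 ratios were centered on each array's median over these probes. The groups were compared over all 30202 probes with lmFit and eBayes of limma 3.58.1 (R 4.3.3) and Benjamini-Hochberg adjustment, at the methods' threshold of 0.085 and at 0.05. The fit was tested on simulated data. For a gene with several probes the brightest was used in correlations. Correlations were tested with 100000 permutations in AD dogs and all 40320 orders in healthy dogs (Python with NumPy and SciPy 1.17.1, figures with matplotlib 3.10.9). The average of the members was taken after each gene's group mean was removed where it was correlated, and carries no p. Genes named were all member probes, for each of 3 B-lineage lists the genes past 0.085 or else the 3 with the smallest p, and the 10 most alike; list genes with an r of at least 0.5, and those set against them, were chosen after their values were seen. Of the genes this rule names, 3 are not reported here.

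The members and lists were chosen with earlier results of these data known. No label gives repeat samples of a dog, so p-values measure the spread between dogs, and any difference between slides is part of that spread. The number of arrays limits the precision. Alternatives covered the signal filter, outlier marks, background correction, centering, the dog channel alone, the authors' table, slide, scan day and dog number as random blocks, array weights, the probe chosen, and each slide left out in turn. Gene names are those of the array's design.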

Additional observations from a re-analysis of the deposited data

Results flagged for a closer look

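Only the healthy group, with 8 dogs, was of a size at which single samples were compared with the rest of their group. Of the 9 probes examined, CD72 probe 1 had a healthy dog far from the others. Healthy dog 8 had a log2 ratio of 0.61 and the next highest healthy dog -0.17, a gap of 0.707 of the group's range, which exceeds Dixon's critical value for 8 samples. About 1 in 20 groups passes this limit by chance. CD72 probe 2 gave 0.57 for the same dog, beside 0.60 for healthy dog 1.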

How the results depend on the processing

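In the fits of 21 alternative settings, 0 member probes passed the adjusted p of 0.085 by limma. Over all probes 3 passed without the signal filter, 1052 with the dog channel alone after quantile normalization and 1009 with array weights, against 0 otherwise; the causes were not tested. With array weights 2 member probes had an unadjusted p under 0.05 by limma, MS4A1 (log2 fold change -0.67, p = 0.0122, adjusted p = 0.147) and PAX5 (-0.43, p = 0.0223, adjusted p = 0.178). Over all alternatives the adjusted p ran from 0.147 to 0.996 for MS4A1 and from 0.178 to 0.996 for PAX5. With 1 slide left out at a time this count was 0 to 1, with BLK passing without slide 5 and PAX5 without slide 8.

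The means of MS4A1, PAX5 and BLK stayed lower, and that of CD79A higher, in AD dogs in each setting that gave a value. Their log2 fold changes ran from -0.67 to -0.08, -0.57 to -0.02, -0.50 to -0.03 and 0.04 to 0.30. BLK passed the main signal filter only through the dog channel of healthy dogs, so its direction is not independent of that filter. For CD79A the AD median of -0.20 lay below the healthy median of -0.14. Without slide 4, which held AD dog 8 with its value of 1.99, the log2 fold change of CD79A was 0.047. BLK did not pass the stricter signal filter. Under normexp and loess, with an offset of 50, MS4A1 was at -0.08 and CD79B at 0.09. The part of the offset in these values was not tested. With the dog channel alone CD79B was at 0.44 (p = 0.0740), CD72 at -0.33 and CD22 at -0.25, and in other settings these genes changed sign. CD22 was at 0.029 with normexp and loess, 0.036 with array weights, 0.021 without scan day 5 and 0.14 with only values well above background. CD79B was at -0.069 with array weights and -0.055 without scan day 5. With 1 slide left out, CD22 ran from -0.13 to 0.14, CD79B from -0.10 to 0.13 and CD72 from -0.15 to 0.045. The median log2 fold change of the member genes stayed between -0.15 and 0.04.

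The median pairwise r of AD dogs was 0.342 with the dog channel alone, 0.371 without scan day 5, 0.421 with only values well above background, 0.582 without CD79A and 0.634 without CD79A and BLK, the last settings being added after seeing the data. With 1 slide or dog left out it ran from 0.243 (without dog 16) to 0.555 (without dog 20). That of healthy dogs ran from -0.0322 (without slide 3) to 0.416 (without slide 2).

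AD and healthy dogs share dog numbers 1 to 8 in the labels, which only name them. The deviations of same-numbered dogs from their group means had an r of -0.359 to 0.425, over 0.1 in 4 of 8 pairs, and 1 of 8 healthy dogs correlated best with its own number. With the dog number as a replicate block, 0 member probes passed and CD22 was at 0.0057. FCRLA gave no value under any setting.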
